A study of Mus musculus with 14 samples.

Results

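The genes described here are those of the mouse major histocompatibility complex (MHC) and of the machinery that loads peptides onto MHC molecules. They were chosen by name: every gene of the liver or kidney count table whose symbol starts with H2-, plus B2m, Tap1, Tap2, Tapbp, Psmb8, Psmb9, Psmb10, Cd74, Ciita and Nlrc5. This gave 39 of the 22263 genes named in either table, 39 in the liver table and 37 in the kidney table, where H2-Q1 and H2-M6-ps have no row. They comprise 20 class I genes (B2m, the light chain of class I molecules, included), 10 class II genes, 6 processing genes and 2 transactivators. The remaining member, H2-Ke6, encodes a hydroxysteroid dehydrogenase, not an MHC molecule, and was in the set through its name alone.

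The samples were 14 RNA-seq libraries from liver and kidney of 12-week-old adult male mice that carry a human angiotensinogen transgene of the haplotype Hap -6A. All animals carried the transgene, so no group without it was compared. Liver was represented by 4 libraries from mice on a normal diet and 4 from mice on a high salt diet, and kidney by 3 and 3. The strain background, the salt content, the length of feeding and whether libraries of the same number share a mouse are not given in the sources used here, and no label says that the libraries of a group came from separate animals, so p-values measure only the spread between these libraries.

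Class I molecules carry peptides made inside the cell and are found on nearly all nucleated cells. The proteasome cuts the peptides, and the immunoproteasome holds the inducible subunits encoded by Psmb8, Psmb9 and Psmb10. The transporter Tap1/Tap2 moves the peptides into the endoplasmic reticulum, where tapasin (Tapbp) helps load them. Class II molecules carry peptides from taken-up material and are found mainly on B cells, dendritic cells and macrophages, with the invariant chain Cd74 guarding the groove until H2-DM exchanges it for peptide. Nlrc5 is the main transactivator of class I genes and Ciita that of class II genes. In mouse liver, hepatocytes are known as the source of H2-Q10, a class I molecule that is secreted.

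Total counts per library were 37267778 to 51487382 in liver and 16046094 to 22004927 in kidney. The tissue labels matched their markers: 5 hepatocyte markers summed to 48350 to 104400 CPM (counts per 1000000 counts of the scaled library total) in liver libraries and 182 to 243 CPM in kidney libraries, and 6 kidney markers to 3176 to 5111 CPM in kidney. Several liver libraries stood apart. Mitochondrial genes took 2.30% and 2.06% of counts in normal diet libraries 1 and 2, and 11.3% to 29.6% in the other 6. Neutrophil markers summed to 55.1 CPM in normal diet library 4 and to 1.14 to 1.82 CPM in the other livers. High salt livers HS5 and HS6 (columns numbered 5 to 8 in the table, with no link to a titled sample) had a chi-square of 1.58 per gene between them, where other same-diet liver pairs had 10.2 to 61.1, so they were closer to sampling noise than any other pair. Results are given with and without these libraries where a call moved.

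In GENCODE M21 (build GRCm38, mm10) 34 of the 39 members lie on chromosome 17, 33 are protein coding and 6 are pseudogene types. Many class I genes are near copies of each other. Of the class I genes with an H2 name, 7 shared over 20% of their 50-base exon windows with another gene, among them H2-Q6 at 32.0%, H2-Q7 at 26.4%, H2-T22 at 34.5% and H2-T10 at 32.9%. The deposited expected counts divide such reads between copies by an estimate, so values of these genes are less certain than those of H2-K1 (9.63%) or B2m (0%). Psmb9 and Tap1 lie head to head and overlap at chr17:34187553-34187764, and H2-Ke6 overlaps Gm20427 over 70.5% of its windows. Whether counting used strand is not given in the sources used here, so reads of such neighbours may not be separable.

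RefSeq start sites (GRCm38.p6) were found for 27 of the 39 members, and the 250 bases before the start were searched for 5 short motifs on both strands. Promoters of 5 members named in the results below are shown. They are the classical class I gene H2-K1, the near copies H2-Q6 and H2-Q7, H2-Q10, which had the widest difference between the tissues, and H2-Aa for class II. Of the near copies, only H2-Q6 was called between the diets in liver, and whether their diet differences differ was not tested. The windows are H2-K1 at chr17:34000348-34000597 on the minus strand, H2-Q6 at chr17:35424600-35424849, H2-Q7 at chr17:35438905-35439154 and H2-Q10 at chr17:35469839-35470088 on the plus strand, and H2-Aa at chr17:34287824-34288073 on the minus strand. Each reads 5′ to 3′ toward its start, and capitals mark the motif matches.
H2-K1: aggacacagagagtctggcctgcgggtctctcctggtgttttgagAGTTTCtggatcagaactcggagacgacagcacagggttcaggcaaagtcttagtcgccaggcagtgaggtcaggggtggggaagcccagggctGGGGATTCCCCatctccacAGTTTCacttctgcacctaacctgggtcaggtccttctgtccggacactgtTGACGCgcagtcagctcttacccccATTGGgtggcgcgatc
H2-Q6: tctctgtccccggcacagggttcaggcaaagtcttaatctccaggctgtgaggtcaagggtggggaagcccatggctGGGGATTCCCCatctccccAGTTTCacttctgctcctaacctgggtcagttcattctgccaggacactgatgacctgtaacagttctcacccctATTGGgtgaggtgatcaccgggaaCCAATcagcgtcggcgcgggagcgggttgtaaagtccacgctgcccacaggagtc
H2-Q7: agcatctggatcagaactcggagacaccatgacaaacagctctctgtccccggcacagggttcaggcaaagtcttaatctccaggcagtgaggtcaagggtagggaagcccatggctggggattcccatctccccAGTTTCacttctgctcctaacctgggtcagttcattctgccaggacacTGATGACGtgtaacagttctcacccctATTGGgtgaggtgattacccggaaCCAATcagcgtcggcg
H2-Q10: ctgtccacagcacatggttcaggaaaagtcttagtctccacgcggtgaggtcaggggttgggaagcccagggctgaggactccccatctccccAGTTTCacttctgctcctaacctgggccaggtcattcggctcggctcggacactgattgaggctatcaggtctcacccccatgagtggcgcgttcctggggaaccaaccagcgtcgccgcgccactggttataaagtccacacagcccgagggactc
H2-Aa: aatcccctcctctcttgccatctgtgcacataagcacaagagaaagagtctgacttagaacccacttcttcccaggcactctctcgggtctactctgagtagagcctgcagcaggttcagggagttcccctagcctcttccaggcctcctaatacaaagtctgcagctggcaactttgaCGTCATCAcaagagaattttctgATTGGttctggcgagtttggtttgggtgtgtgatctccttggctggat

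The capitals in the H2-K1 and H2-Q6 promoters include the κB palindrome GGGGATTCCCC, the site of the class I enhancer bound by NF-κB proteins, which starts 111 bases upstream in H2-K1 and 173 in H2-Q6. This palindrome was in 0.0304% of 32851 mouse promoter windows of the same length, and in 3 of the 13 class I members with a window (H2-K1, H2-D1 and H2-Q6). Only its exact letters were searched. H2-Q7 reads ggggattccc at the like place, short of the last C, and such near matches were not counted. AGTTTC, part of the interferon-stimulated response element, was in 10 of 13 class I members and 13.5% of all windows. The CCAAT box, searched as ATTGG, was in 12 of 13 class I members, 8 of 8 class II members and 33.9% of all windows, and H2-Q10 was the class I member without it. TGACGC, the core of the class I cyclic-AMP response element, was in 3 of 13 class I members and 6.12% of all windows. TGATGACG, the core of the X2 box, was in 3 of 13 class I members, in 1 of 8 class II members (H2-Aa) and in 0.630% of all windows. TGATGACG and TGACGC share letters and overlapped in H2-D1 and H2-M3. These matches describe letters in the window and say nothing of whether a factor binds.

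In liver, class I genes were far more abundant than in kidney, processing genes followed them, and class II genes did not. On the normal diet, CPM of the 18 class I genes found in both tables summed to 6354 ± 1588 (SD, n = 4) in liver and 355.7 ± 38.5 (n = 3) in kidney, with all 14 libraries scaled together. The 10 class II genes summed to 139 ± 48.2 CPM in liver and 173 ± 50.5 CPM in kidney, and the liver range, 91.7 to 182 CPM, overlapped the kidney range, 115 to 209 CPM. The 6 processing genes summed to 192 ± 52.8 CPM in liver and 43.4 ± 2.43 CPM in kidney. In bulk tissue, fewer cells of a type and less RNA per cell cannot be told apart. The 2 count tables were quantified separately by the authors, so tissue and table cannot be told apart in these values.

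**Figure D1:**
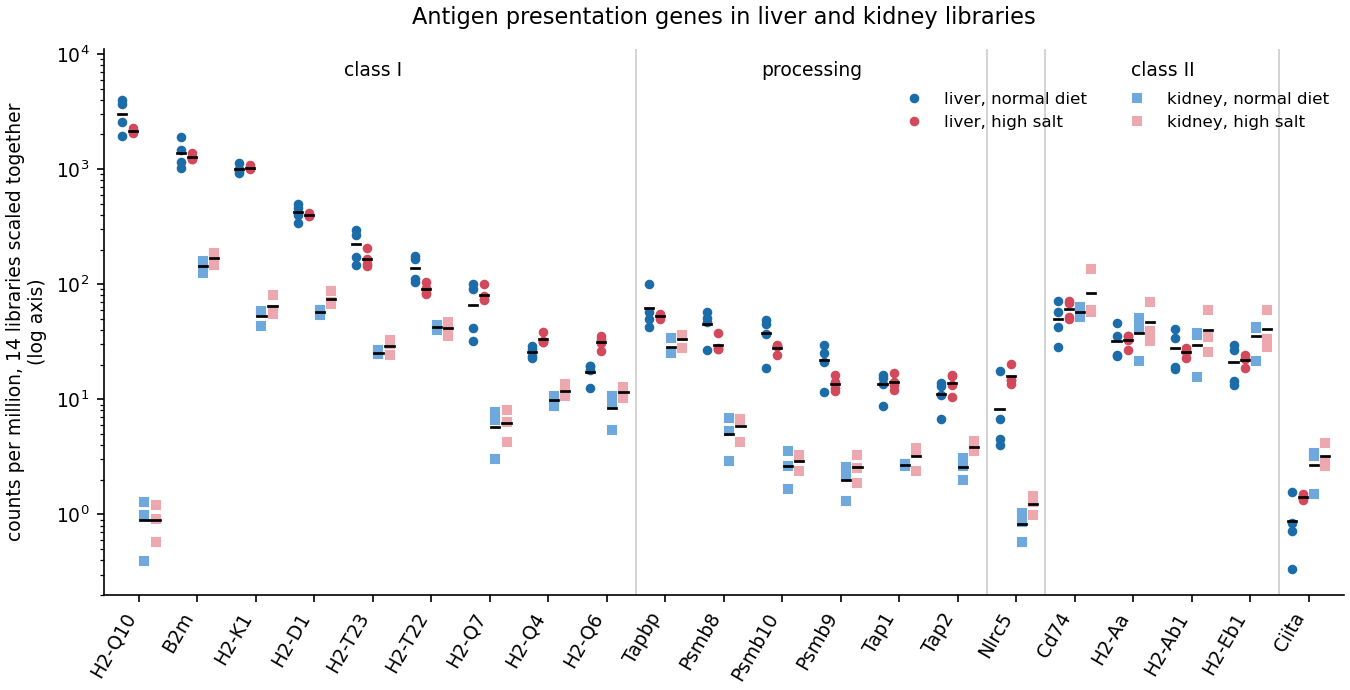
CPM (log axis, 14 libraries scaled together) of 21 members in each library of liver (circles) and kidney (squares) on the normal (blue) or high salt (red) diet, with Nlrc5 and Ciita, the transactivators, set apart by grey lines and black bars for group means. Class I and processing genes lie higher in liver, the liver and kidney points of the class II genes overlap, and H2-Q10 spans from about 1 CPM in kidney to above 1900 CPM in every liver.

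Of 37 members tested, 23 passed edgeR's quasi-likelihood test between the tissues on the normal diet (Benjamini-Hochberg adjusted p under 0.05 over 16633 genes), 20 higher and 3 lower in liver. Most genes differ between these organs: 65.1% of all genes passed, 32.9% higher and 32.2% lower in liver. Positive log2 fold changes (liver over kidney) were seen in 24 of the 37 members and 50.5% of all genes. The median was 1.13 over the members and 0.02 over all genes. With upper quartile scaling, which moved the median of all genes to -0.28, and also with RLE scaling, 20 members were higher and 6 lower.

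H2-Q10, the secreted class I gene at chr17:35470089-35474563, had the widest difference of the members. On the common scale it was at 3976, 3710, 1931 and 2546 CPM in normal diet livers 1 to 4 and at 0.390, 1.28 and 0.997 CPM in kidneys 1 to 3. The groups lay more than 3 orders of magnitude apart, with a log2 fold change of 11.73 (SE 0.60, edgeR adjusted p = 4.1e-10). The kidney level rested on 9.60, 26.9 and 25.2 expected counts, and 18.98% of the gene's windows are shared with other genes (13.99% with H2-Q7). Whether the kidney counts came from H2-Q10 or from such copies was not tested. H2-Q10 made up 47.7% of the class I CPM in normal diet liver and 0.250% in kidney.

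The classical heavy chains H2-K1 and H2-D1, which present peptides to CD8 T cells, were also higher in liver. H2-K1 was at 1139, 961, 920 and 1010 CPM in the normal diet livers and at 43.03, 58.12 and 57.72 CPM in the kidneys on the common scale, a log2 fold change of 4.25 (SE 0.27, edgeR adjusted p = 3.2e-09). H2-D1 had liver values of 343 to 499 CPM, kidney values of 53.8 to 59.8 CPM and a log2 fold change of 2.88 (SE 0.22, edgeR adjusted p = 2.2e-08). H2-K1 had thus a larger fold change than H2-D1, a difference between genes that was not tested. Their light chain B2m was at 1020 to 1882 CPM in liver and 124 to 159 CPM in kidney (log2 fold change 3.25, SE 0.29, edgeR adjusted p = 1.5e-07).

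Set per kilobase of exon, so that genes can be compared within a tissue, B2m led both organs, with 1344 CPM per kb in normal diet liver and 207 CPM per kb in kidney. In liver H2-Q10 (584 CPM per kb), H2-K1 (289), H2-D1 (139), H2-T23 (64.0) and H2-T22 (34.1) followed among class I genes. In kidney the order was H2-D1 (27.5), H2-K1 (22.1), H2-T22 (15.1) and H2-T23 (10.8), and H2-Q10 was at 0.251 CPM per kb. The class II invariant chain Cd74, at 41.9 CPM per kb, stood above every class I heavy chain in kidney, whereas in liver it was at 25.2 CPM per kb, below H2-K1 and H2-D1.

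Non-classical class I genes, which show peptides to specialised receptors or have limited roles in presentation, divided. H2-T23, which encodes Qa-1 (a ligand of the NKG2A receptor of NK cells), was at 148 to 298 CPM in normal diet liver and 24.6 to 26.8 CPM in kidney, a log2 fold change of 3.13 (SE 0.27, edgeR adjusted p = 1.2e-07). H2-T22, a ligand of some gamma-delta T cells, was at 104 to 177 CPM and 40.0 to 44.1 CPM, a log2 fold change of 1.73 (SE 0.22). H2-Q7 (3.51, SE 0.44), H2-Q4 (1.39, SE 0.17) and H2-Q6 (1.06, SE 0.23) were higher in liver too, and H2-Q6 and H2-Q7 summed to 1 gene gave 2.56 (SE 0.34, edgeR adjusted p = 1.1e-05). H2-T10 (4.18, SE 0.69), H2-Bl (4.06, SE 1.16) and the pseudogene H2-K2 (3.80, SE 0.63) were also called. In all, 12 of 18 class I members tested were higher in liver and 1 was lower.

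H2-M2 was the class I member called lower in liver, with 0.0272 to 0.263 CPM in liver and 0, 0.906 and 0.475 CPM in the kidneys. This call rests on few reads, from 1 to 9 counts a liver library and 0 to 19 a kidney library, and its edgeR adjusted p of 0.049 passed 0.05 in 7 of 19 alternatives and ranged to 0.33.

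All 6 processing genes were higher in liver. The immunoproteasome subunits had the larger differences. Psmb10 was at 44.8, 36.6, 18.7 and 49.3 CPM in the normal diet livers and at 1.67, 2.62 and 3.57 CPM in the kidneys (log2 fold change 3.83, SE 0.34, edgeR adjusted p = 1.4e-07). The fold changes of Psmb9 (3.45, SE 0.34) and Psmb8 (3.18, SE 0.33) were alike in size. The peptide transporter subunits followed, Tap1 with 2.32 (SE 0.25) and Tap2 with 2.11 (SE 0.27). Tapasin differed least: Tapbp was at 42.2 to 99.9 CPM in liver and 25.2 to 34.3 CPM in kidney, a log2 fold change of 1.13 (SE 0.26, edgeR adjusted p = 0.0012), and with the replicate number as a block the adjusted p was 0.067.

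The transactivators differed in opposite directions. Nlrc5, the class I transactivator at chr8:94434356-94527272, was at 3.98, 4.55, 6.70 and 17.7 CPM in the normal diet livers and at 0.853, 0.572 and 1.03 CPM in the kidneys, a log2 fold change of 3.31 (SE 0.49, edgeR adjusted p = 2.9e-05). Ciita, the class II transactivator at chr16:10480059-10528418, was at 0.848, 0.337, 0.724 and 1.58 CPM in liver and at 1.503, 3.385 and 3.209 CPM in kidney, a log2 fold change of -1.61 (SE 0.41, edgeR adjusted p = 0.0029). The Nlrc5 groups did not overlap, while the highest liver value of Ciita, in normal diet library 4, lay above the lowest kidney value. Both calls held in all 21 alternatives.

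Of the 10 class II genes, none was called higher and 1 lower in liver. That gene was H2-Ob, which encodes a chain of H2-O, an inhibitor of H2-DM found mostly in B cells. It was at 0.438 to 0.994 CPM in liver and 0.731, 2.19 and 2.10 CPM in kidney, a log2 fold change of -1.30 (SE 0.46, edgeR adjusted p = 0.022), and the adjusted p rose above 0.05 in 5 of 21 alternatives, to 0.12 at most. The classical chain H2-Eb1 was at 29.5, 14.52, 13.4 and 27.1 CPM in liver and 21.3, 42.5 and 41.8 CPM in kidney, with a log2 fold change of -0.74 (SE 0.33) and an edgeR adjusted p of 0.060 that fell below 0.05 in 6 of 21 alternatives, to 0.012 with upper quartile scaling. H2-DMb1, a chain of the peptide editor H2-DM, had a log2 fold change of -0.90 (SE 0.41, edgeR adjusted p = 0.064), below 0.05 in 5 of 21. Cd74 was at 28.5 to 71.6 CPM in liver and 51.9 to 63.7 CPM in kidney, so the tissues overlapped (log2 fold change -0.20, SE 0.33, edgeR adjusted p = 0.60).

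**Figure D2:**
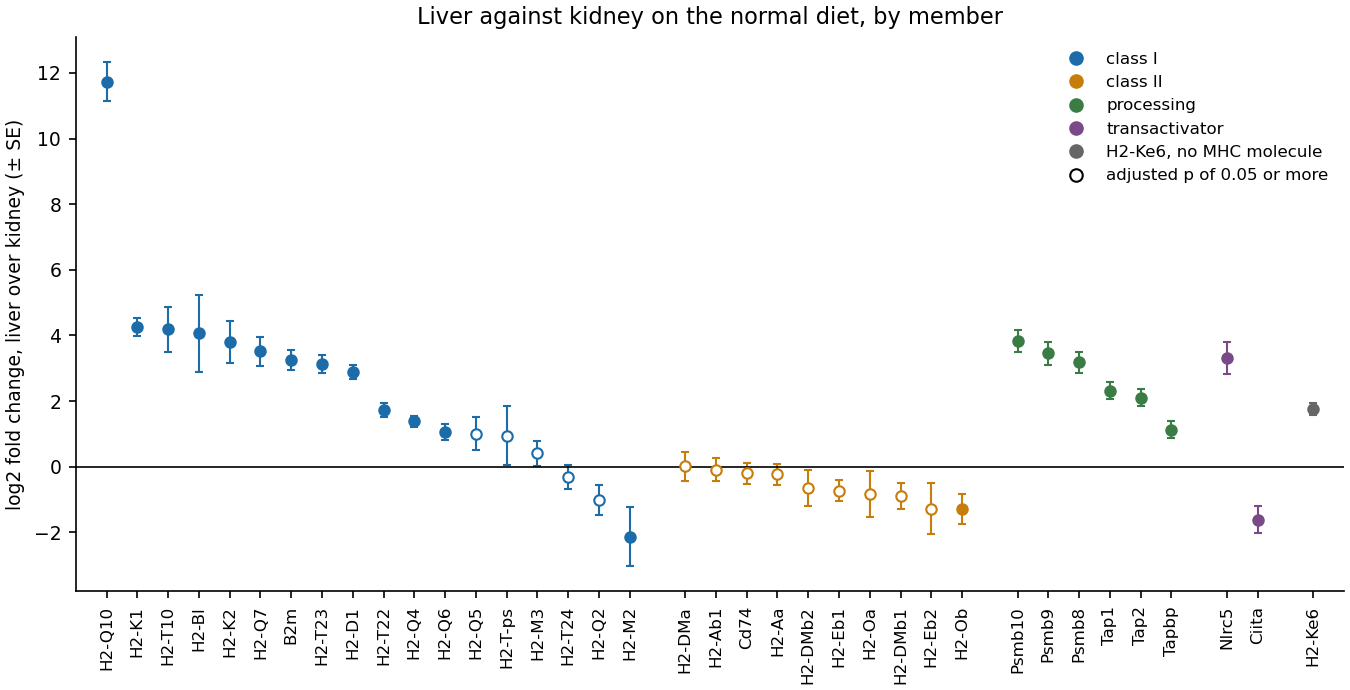
Log2 fold change of liver over kidney on the normal diet for the 37 members tested (points, with bars for 1 standard error; filled points have an edgeR adjusted p under 0.05), by class. All 6 processing genes and 12 of 18 class I genes lie above 0 with filled points, and 9 of 10 class II genes lie below 0, of which only H2-Ob is filled.

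H2-Ke6 was higher in liver, at 66.5, 66.7, 48.9 and 60.4 CPM in the normal diet livers and at 17.7, 17.2 and 19.1 CPM in the kidneys on the common scale, so the tissues lay well apart (log2 fold change 1.76, SE 0.17, edgeR adjusted p = 3.9e-07). The class II chains H2-Aa, at 23.7 to 45.7 CPM in liver and 21.4 to 50.5 CPM in kidney, and H2-Ab1, at 18.4 to 40.5 CPM and 15.5 to 37.9 CPM, overlapped between the tissues and were not called.

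The members named next had mean levels below 4 CPM in both tissues on the normal diet. On the common scale, H2-DMa, the other chain of H2-DM, was at 2.77 ± 1.02 CPM in liver (n = 4) and 2.76 ± 1.34 CPM in kidney (n = 3). H2-M3, which presents N-formylated peptides, was at 2.11 ± 0.459 and 1.60 ± 0.879 CPM. H2-T24 was at 1.85 ± 0.912 and 2.29 ± 0.298 CPM and H2-Q2 at 0.591 ± 0.212 and 1.19 ± 0.624 CPM. H2-Q5, H2-T-ps, H2-DMb2, H2-Oa (the partner of H2-Ob) and H2-Eb2 were below 1 CPM on average in both, and H2-M6-ps had at most 4 counts in any liver library. The edgeR test called none of these between the tissues, and H2-M6-ps, with no kidney row, was not tested.

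Markers of the cells that carry class II molecules are given on the scale of each table, not on the common scale. The 2 scales differ: normal diet Cd74 had means of 42.3 CPM in liver and 70.3 CPM in kidney within the tables. On the common scale these were 49.8 and 57.3 CPM. The marker values of liver and kidney are thus not directly comparable. The pan-leukocyte gene Ptprc was at 1.83 to 4.21 CPM in normal diet liver and 7.84 to 22.9 CPM in kidney. The 5 B cell markers summed to 1.42 to 2.64 CPM in liver and 0.949 to 4.39 CPM in kidney, and 7 dendritic cell markers to 3.54 to 6.79 CPM and 9.34 to 12.3 CPM. The 11 macrophage and Kupffer cell markers summed to 157 to 342 CPM in liver, and the 8 of them with a kidney row to 55.5 to 171 CPM. None of these markers with a row in a table was at 0 in every library of a diet. Their part in the class II levels was not tested.

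High salt was set against the normal diet within each tissue. In liver, H2-Q6 was the 1 member of 35 tested that edgeR called, among 152 of 15130 genes (1.00% of all genes, with 0.595% higher on high salt and 0.410% lower). The other 4 members did not pass the filter on low counts. At an unadjusted p under 0.05 there were 8 members, 4 higher (H2-Q1, H2-Q4, H2-Q5 and H2-Q6) and 4 lower (H2-T22, Psmb8, Psmb9 and H2-Ke6), where 21.2% of all genes had such a p (9.83% higher and 11.3% lower), so the members' share was near the background. Positive log2 fold changes (high salt over normal) were seen in 17 of the 35 and in 48.0% of all genes. The median was -0.09 over the members and -0.02 over all genes.

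H2-Q6 encodes a Qa-2 type class I molecule and lies at chr17:35424850-35430055. It was at 15.8, 15.8, 15.6 and 11.1 CPM in normal diet livers 1 to 4 and at 29.1, 27.7, 22.5 and 26.2 CPM in high salt livers HS5 to HS8. Every high salt library was above every normal diet library, with a log2 fold change of 0.85 (SE 0.16, a 1.81-fold rise, edgeR adjusted p = 0.045). The call was narrow. It was lost in 11 of 18 alternatives, where the log2 fold change stayed between 0.73 and 0.98 over all 18: adjusted p was 0.18 with the near-identical HS5 and HS6 summed, 0.063 with no filter on low counts, and 0.195 at most on leaving out 1 library.

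H2-Q7, the neighbour and near copy of H2-Q6, lies at chr17:35439155-35443773. Its values were 81.3, 73.7, 27.9 and 36.5 CPM in the normal diet livers and 59.4, 65.3, 86.3 and 62.5 CPM in the high salt livers. Normal diet libraries 1 and 2 thus lay with or above the high salt libraries and libraries 3 and 4 lay below them (log2 fold change 0.32, SE 0.32, edgeR adjusted p = 0.59). Without libraries 1 and 2 the H2-Q7 difference was 1.09 (edgeR adjusted p = 0.087). Added together, H2-Q6 and H2-Q7 gave 97.1, 89.5, 43.5 and 47.7 CPM on the normal diet and 88.5, 92.96, 108.8 and 88.7 CPM on high salt, so the diets overlapped, and the log2 fold change of the sum was 0.45 (SE 0.27, edgeR adjusted p = 0.35). The difference called for H2-Q6 alone was thus not called for the pair.

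H2-Q4 and H2-Q5 also had every high salt library above every normal diet library, as 6.42% of all genes did. H2-Q4 was at 19.4, 18.4, 23.6 and 25.5 CPM on the normal diet and at 25.8, 26.8, 27.2 and 32.4 CPM on high salt (log2 fold change 0.37, SE 0.15, edgeR adjusted p = 0.21). The lowest high salt value lay close above the highest normal diet value. H2-Q5, a gene annotated as a polymorphic pseudogene, was at 0.486 to 0.901 CPM and 1.05 to 1.31 CPM (log2 fold change 0.84, SE 0.28, edgeR adjusted p = 0.15). H2-Q1, on the same stretch of chromosome 17, was at 1.34 to 4.71 CPM and 3.27 to 9.05 CPM (1.25, SE 0.42, edgeR adjusted p = 0.15). It was called in 1 of 19 alternatives, by DESeq2 (adjusted p = 0.048). Of their windows, H2-Q4 shares 21.8%, H2-Q5 36.5% and H2-Q1 14.96% with other genes, so these values are less certain.

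H2-T22 was the member with every high salt library below every normal diet library, as 6.03% of all genes were. Its values were 134.7, 142.9, 90.6 and 98.1 CPM on the normal diet and 67.8, 70.2, 90.1 and 77.6 CPM on high salt, a log2 fold change of -0.61 (SE 0.19, edgeR adjusted p = 0.13). Normal diet library 3 was barely above HS7, and without normal diet libraries 1 and 2 the log2 fold change was -0.30.

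H2-Q10 followed the same split of the normal diet libraries. It was at 3235, 3001, 1677 and 2249 CPM on the normal diet and at 1693, 1783, 1951 and 1798 CPM on high salt, a log2 fold change of -0.49 (SE 0.25, edgeR adjusted p = 0.28) that was -0.12 without normal diet libraries 1 and 2. The most even heavy chain was H2-K1, at 927, 778, 799 and 892 CPM on the normal diet and at 847, 893, 870 and 856 CPM on high salt, with means of 849 ± 71.8 and 867 ± 20.3 CPM (n = 4 each). H2-D1 was at 358 ± 45.5 and 335 ± 13.2 CPM, and B2m at 1156 ± 277 and 1069 ± 89.5 CPM. For each of these 3 genes the diets overlapped, and the spread over high salt livers was narrower than over normal diet livers.

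**Figure D3:**
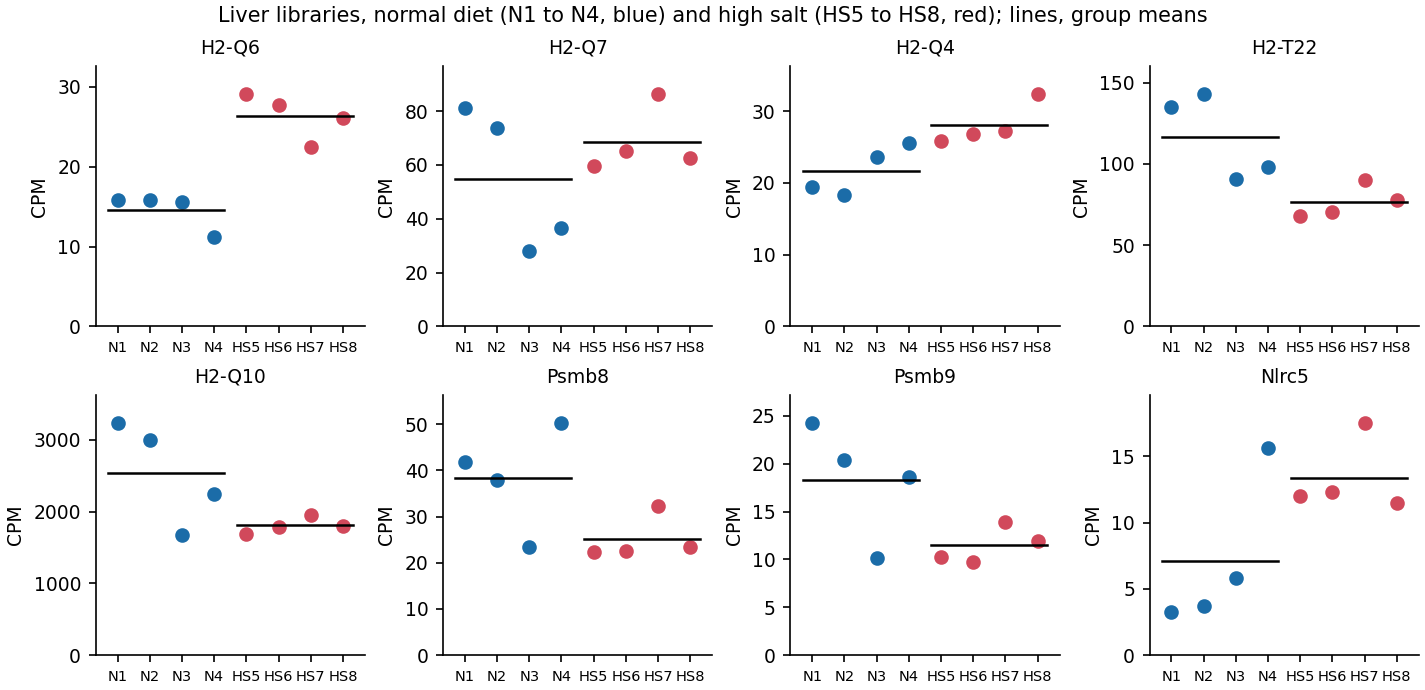
CPM of 8 members in each liver library (N1 to N4, normal diet, blue; HS5 to HS8, high salt, red), each panel with its own axis from 0 and black lines for group means. H2-Q6 is higher in every high salt library, while H2-Q7, H2-Q10 and Nlrc5 vary as much within the normal diet as between the diets.

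Among processing genes, the immunoproteasome subunits were at lower mean levels on high salt but none was called. Psmb9 was at 24.3, 20.4, 10.1 and 18.6 CPM on the normal diet and at 10.2, 9.75, 13.9 and 12.0 CPM on high salt (log2 fold change -0.68, SE 0.25, edgeR adjusted p = 0.18). Normal diet library 3 was as low as the high salt livers, and without it the log2 fold changes of Psmb9 (-0.89, edgeR adjusted p = 0.036) and Psmb8 (-0.79, edgeR adjusted p = 0.046) were called. Leaving out that library raised the calls over all genes too, to 765 of 15471 from 152 of 15130. With all libraries Psmb8 was at 41.7, 38.0, 23.4 and 50.3 CPM and at 22.4, 22.5, 32.3 and 23.4 CPM (-0.61, SE 0.23, edgeR adjusted p = 0.19). Psmb10 had a log2 fold change of -0.42 (SE 0.26, edgeR adjusted p = 0.38). The other proteasome subunit genes listed, Psmb5 (-0.796, edgeR adjusted p = 0.21), Psmb6 (-0.36) and Psmb7 (-0.32), are not members and were lower too, with none called. Psmb5 was at 137.7, 137.2, 43.98 and 82.57 CPM on the normal diet and at 46.83, 48.78, 59.89 and 75.75 CPM on high salt. Lower means were thus not particular to the immunoproteasome, and whether the subunits differ in this was not tested.

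The transporter and tapasin did not follow the immunoproteasome in direction together. Tap2 was at 9.38 ± 2.73 and 11.7 ± 2.14 CPM (log2 fold change 0.32, SE 0.24, edgeR adjusted p = 0.46), and Tap1 at 11.3 ± 2.76 and 11.9 ± 1.93 CPM. Tapbp was at 40.2, 34.2, 50.03 and 88.3 CPM on the normal diet and 42.9 to 46.3 CPM on high salt, the high value being that of normal diet library 4, where neutrophil markers were at 55.1 CPM and macrophage and Kupffer cell markers, at 342 CPM, were also highest (157 to 240 CPM in the other normal diet livers and 116 to 228 CPM on high salt). That library was also the highest normal diet liver for Psmb8, Psmb10, Nlrc5 and Cd74, and the part of either cell type in these values was not tested.

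Nlrc5 was at 3.23, 3.68, 5.82 and 15.6 CPM in the normal diet livers and at 12.02, 12.31, 17.52 and 11.50 CPM in the high salt livers. Only library 4 of the normal diet lay among the high salt values (log2 fold change 0.91, SE 0.45, edgeR adjusted p = 0.28). Without library 4 the log2 fold change was 1.65 (edgeR adjusted p = 0.030), in a setting that called 409 of 15270 genes, against 152 of 15130 with all libraries. Without libraries 1 and 2 it was 0.32 (edgeR adjusted p = 0.72). The size of the Nlrc5 difference thus depended on which normal diet libraries were kept. H2-K1, B2m and Tap1, known targets of Nlrc5, had overlapping diets. Of the 18 class I genes tested, 3 (H2-Q4, H2-Q5 and H2-Q6) had every high salt library above every normal diet library. In 1, H2-T22, every one lay below. Whether Nlrc5 acts on these genes was not tested. Over all genes of liver, 6.42% lay above and 6.03% below. The part of Nlrc5 in these values was not tested.

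Class II genes in liver showed no called difference, and none of the 8 tested had an unadjusted p under 0.05. Cd74 was at 46.2, 23.02, 36.8 and 63.3 CPM on the normal diet and at 56.6, 59.8, 43.1 and 43.4 CPM on high salt (log2 fold change 0.26, SE 0.28, edgeR adjusted p = 0.60). The chains H2-Aa, H2-Ab1 and H2-Eb1 were at 27.2 ± 8.55, 23.6 ± 9.17 and 17.8 ± 7.08 CPM on the normal diet and at 27.5 ± 3.19, 21.7 ± 2.01 and 18.4 ± 1.89 CPM on high salt. All 3 chains were lowest in normal diet libraries 2 and 3 and highest in libraries 1 and 4. Ciita was at 0.273 to 1.39 CPM and 1.10 to 1.29 CPM (log2 fold change 0.65, edgeR adjusted p = 0.39).

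Some class I genes of the T region varied widely within a diet. H2-Bl was at 16.9, 7.59, 8.64 and 0.962 CPM in the normal diet livers and at 7.04, 8.59, 0.832 and 0.480 CPM in the high salt livers, a range of 17.6-fold on the normal diet and 17.9-fold on high salt. H2-T10 and the pseudogene H2-T-ps, its neighbours, had their 3 lowest values in the same libraries as H2-Bl, though not in the same order. Summed over the 3 genes the CPM were 31.8, 13.5, 15.3 and 2.57 on the normal diet and 12.99, 15.02, 4.04 and 3.44 on high salt. The low libraries were normal diet library 4, HS7 and HS8, so the split ran across the diets, and H2-T22, a partner of H2-T10 in shared windows, was ordered otherwise. H2-K2 was at 1.92, 1.10, 4.28 and 7.93 CPM and at 5.14, 4.62, 4.00 and 7.68 CPM, highest in normal diet library 4 and HS8.

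**Figure D4:**
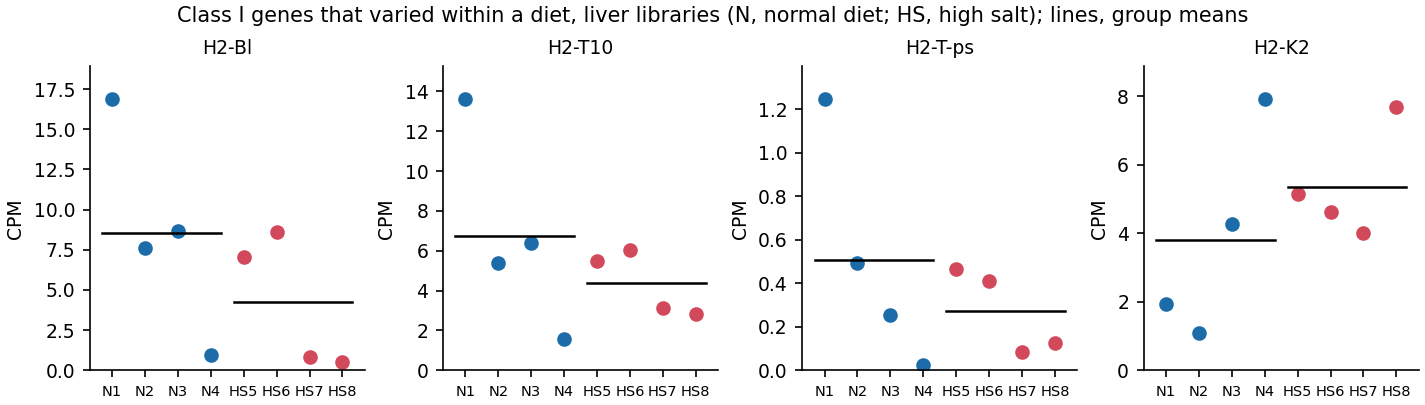
CPM of H2-Bl, H2-T10, H2-T-ps and H2-K2 in each liver library (N1 to N4, normal diet, blue; HS5 to HS8, high salt, red), with black lines for group means. H2-Bl, H2-T10 and H2-T-ps are low in N4, HS7 and HS8 and high in N1, so libraries of 1 diet differ by more than the diets do.

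H2-Ke6, the dehydrogenase gene, was at 54.1, 54.0, 42.5 and 53.3 CPM in the normal diet livers and at 39.5, 40.2, 44.6 and 39.7 CPM in the high salt livers. Its log2 fold change was -0.31 (SE 0.14, edgeR adjusted p = 0.22), and library 3 of the normal diet lay below HS7.

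In kidney no member was called on high salt, as no gene of 15847 was (0%). The other 4 members with a kidney row did not pass the filter on low counts. None of the 33 members tested had an unadjusted p under 0.05, where 2.01% of all genes did, and DESeq2 and limma called none of them either. Positive log2 fold changes were seen in 27 of the 33, against 46.3% of all genes, with a median of 0.25 over the members and -0.02 over all genes. This tilt rested on a pair of libraries: the members' median was 0.02 without normal diet library 1 and 0.06 without high salt library 3. These were also the kidneys with the highest (41.2%, normal diet library 1) and lowest (23.5%, high salt library 3) mitochondrial share of counts. With mitochondrial genes removed the members' median was 0.25, and the part of library composition in the tilt was not tested. Every high salt library was above every normal diet library for 4 members (H2-D1, H2-Q4, Tap2 and H2-Ke6) and below for none, where 3.84% of all genes were above and 3.04% below.

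H2-D1 was at 66.1, 73.2 and 73.0 CPM in normal diet kidneys 1 to 3 and at 85.2, 82.0 and 106 CPM in high salt kidneys 1 to 3. Its log2 fold change was 0.37 (SE 0.19, unadjusted p = 0.095 and adjusted p = 0.9996 by edgeR). H2-K1 was at 52.9, 71.4 and 70.5 CPM and at 73.0, 67.9 and 98.8 CPM (0.30, SE 0.23), and B2m at 153, 196 and 185 CPM and at 219, 179 and 230 CPM (0.23, SE 0.21). In each of these genes, high salt library 3 was the highest and normal diet library 1 the lowest of the 6 kidneys.

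H2-Q6 was at 6.63, 13.0 and 11.1 CPM on the normal diet and at 12.54, 15.46 and 14.25 CPM on high salt in kidney, with a log2 fold change of 0.46 (SE 0.27, adjusted p = 0.9996 by edgeR). Its diets overlapped by a single library pair. Tap2 was at 3.80, 2.45 and 3.24 CPM and at 4.33, 4.41 and 5.36 CPM (0.57, SE 0.26), and Nlrc5, at 0.703 to 1.26 CPM and 1.23 to 1.76 CPM, had a log2 fold change of 0.58 (SE 0.37). Psmb9 was at 1.60 to 3.16 CPM and 2.28 to 4.03 CPM (0.35, SE 0.35).

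Class II genes in kidney were high in 1 high salt library. Cd74 was at 63.8, 78.2 and 68.8 CPM on the normal diet and at 73.8, 69.8 and 168 CPM on high salt, a log2 fold change of 0.56 (SE 0.35, adjusted p = 0.9996 by edgeR) that was 0.03 without high salt library 3. The class II genes summed to 142, 256 and 239 CPM on the normal diet and to 189, 216 and 428 CPM on high salt, so high salt libraries 1 and 2 lay within the normal diet range. H2-Aa, H2-Ab1 and H2-Eb1 shared the extremes of the sum, with high salt library 3 highest and normal diet library 1 lowest.

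Summed B cell markers ranked the kidneys as the class II sum did, whereas summed dendritic cell markers shared only its lowest and highest libraries. The 5 B cell markers summed to 0.949, 4.39 and 3.68 CPM in the normal diet kidneys and to 3.44, 3.47 and 8.64 CPM in the high salt kidneys. The 7 dendritic cell markers summed to 9.34, 12.3 and 10.46 CPM and to 11.8, 13.04 and 14.1 CPM. For both lists the lowest and highest libraries were those of class II. Of the dendritic cell markers tested, 4 of 6 had a positive log2 fold change on high salt (median 0.05), and 3 of 3 B cell markers had (median 0.47), against 46.3% of all genes. The 8 macrophage markers summed to 55.5, 171 and 139 CPM and to 66.5, 87.03 and 105 CPM, lowest in the same library but highest in normal diet library 2, where Lyz2 (lysozyme) alone gave 129 CPM. Single macrophage markers differed in this: C1qa ran from 3.50 CPM in normal diet library 1 to 8.27 CPM in high salt library 3, and C1qb (10.3 CPM) and C1qc (6.41 CPM) were also highest in high salt library 3, whereas Csf1r was highest in normal diet library 1 (24.3 CPM). Ptprc was at 7.84, 22.9 and 17.7 CPM and at 13.7, 15.6 and 16.5 CPM, also highest in normal diet library 2. The part of these cells in the class II values was not tested.

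**Figure D5:**
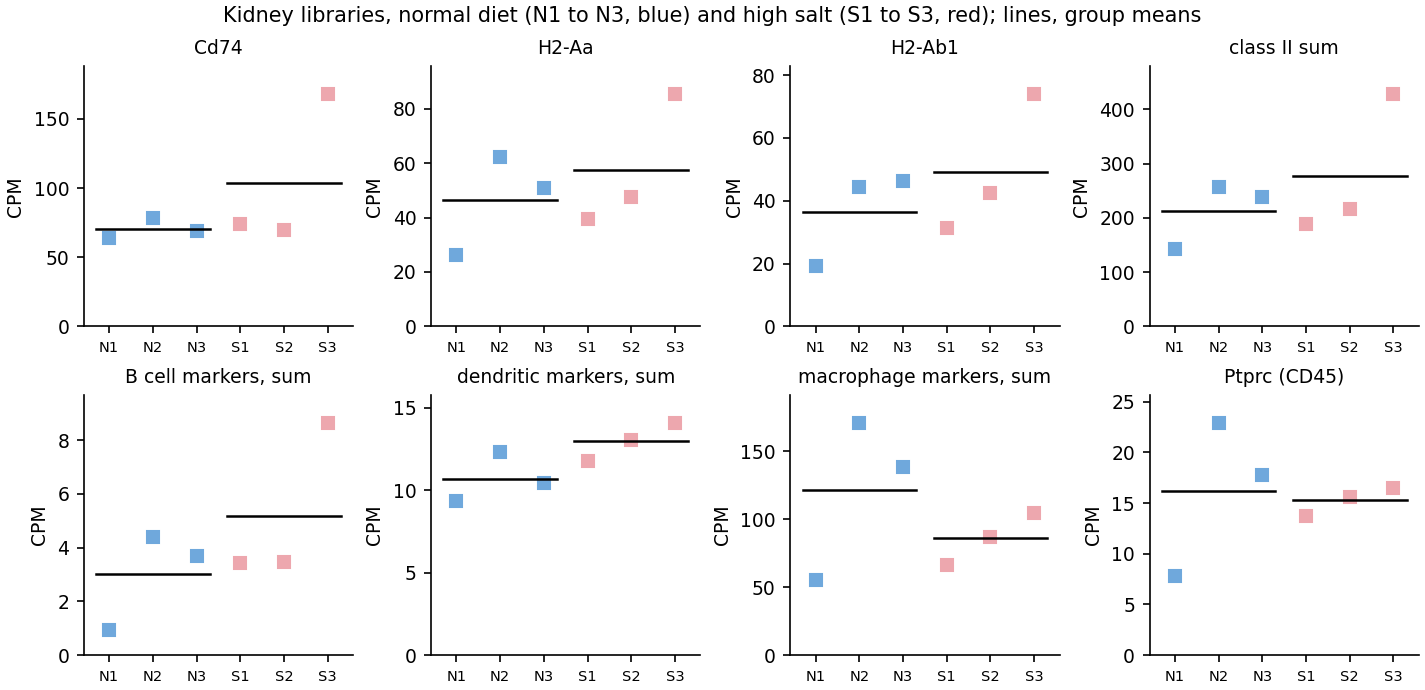
CPM in each kidney library (N1 to N3, normal diet, blue; S1 to S3, high salt, red) of 3 class II genes, of the class II sum, of marker sums for B cells, dendritic cells and macrophages, and of the leukocyte gene Ptprc, with black lines for group means. Class II genes and the B cell and dendritic cell sums are highest in S3 and lowest in N1, although the Cd74 value of N1 is close to those of N3 and S2.

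Whether the diet difference itself differed between the tissues was tested in 1 fit over all 14 libraries. No member of 37 was called, as no gene of 16633 was (0%). At an unadjusted p under 0.05 there were 2 members, against 10.1% of all genes, and DESeq2 called none. These were Psmb9, with a log2 difference (liver change minus kidney change) of -1.04 (SE 0.44, edgeR adjusted p = 0.46), and H2-Ke6, with -0.56 (SE 0.23, edgeR adjusted p = 0.45). Positive differences were seen in 11 of 37 members and 51.6% of all genes. All 6 processing genes had a negative difference, from -1.04 to -0.19, and the median over the members was -0.30 against 0.02 over all genes. The member median was -0.10 without high salt kidney library 3. For H2-Q6 the difference was 0.40 (SE 0.32, edgeR adjusted p = 0.68), so its liver and kidney changes were not shown to differ.

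Genes around the pathway were counted from lists. None passed in either tissue. Of 12 further genes of peptide supply and class I loading, 11 had a negative log2 fold change in liver on high salt, 5 of them with an unadjusted p under 0.05, with a list median of -0.39 against -0.02 over all genes. Over all genes of liver, 11.3% were lower and 9.83% higher at such a p, and 48.0% had a positive log2 fold change. Hspa5, an endoplasmic reticulum chaperone, was at 712, 848, 820 and 966 CPM on the normal diet and at 467, 435, 530 and 506 CPM on high salt (-0.79, SE 0.17, edgeR adjusted p = 0.068). Calreticulin (Calr), a chaperone of the peptide loading complex, was at 600 ± 64.4 and 392 ± 16.9 CPM (-0.61, SE 0.16, edgeR adjusted p = 0.096), and Pdia3, the thiol oxidoreductase of that complex, at 425 ± 34.3 and 291 ± 54.7 CPM (-0.54, SE 0.18, edgeR adjusted p = 0.15). These 3 genes had the smallest unadjusted p of their list by edgeR. In each, all high salt livers lay below all normal diet livers, as in 6.03% of all genes. DESeq2 called the 3 (adjusted p = 1.7e-05, 0.00015 and 0.027), among 1122 of 15130 genes. In kidney the same list had a median of 0.06 and no gene with an unadjusted p under 0.05.

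Regulators other than the transactivators had a positive log2 fold change in liver in 7 of 7, with a median of 0.26 and 1 unadjusted p under 0.05, a share below the 21.2% of all genes. That gene, Rfx5, a subunit of the complex that binds the X box, was at 3.46, 2.90, 3.00 and 3.50 CPM on the normal diet and at 4.47, 5.18, 3.46 and 7.30 CPM on high salt (0.67, SE 0.24, edgeR adjusted p = 0.17). Over all genes of liver, 48.0% were positive. In kidney 2 of the 7 regulators were positive, with a median of -0.11. The 28 interferon response genes tested in each tissue had a median of -0.11 in liver, where 9 were positive and 3 had an unadjusted p under 0.05 (Jak2 higher, Ifngr2 and Isg15 lower), fewer than the 21.2% of all genes. In kidney their median was 0.19, with 23 positive, where 46.3% of all genes were, and 1 unadjusted p under 0.05 (Oasl2), where 2.01% of all genes had one. Of 9 class II peptide supply genes tested in liver, 7 were negative, with the cathepsin Ctsl at 483 ± 77.3 and 334 ± 19.3 CPM (edgeR adjusted p = 0.14). Of 5 co-stimulation genes in liver, 4 were negative, and Cd86 alone had an unadjusted p under 0.05 (edgeR adjusted p = 0.20), as 21.2% of all genes did. In kidney, 4 of 9 class II peptide supply genes and 2 of 4 co-stimulation genes tested were positive.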

How the data were processed

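RNA from mouse liver and kidney was sequenced from SMARTer mRNA libraries, per the labels. The submitters' processing notes name Partek 7.0, STAR 2.5.3a, DESeq2 and build mm10, with no role for each. The authors deposited expected counts per gene, 1 table a tissue, in which 58.2% of liver values and 63.8% of kidney values are whole, and every row sums to at least 10 counts. A second kind of table deposited by the authors holds a normalized signal for each gene. How it was normalized is not given in the sources used here, and it entered only the limma alternative.

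Columns were matched to samples by name, and high salt liver columns 5 to 8 to their diet only. Expected counts were rounded and tested with edgeR 4.0.16 (R 4.3.3) by the quasi-likelihood test, with TMM scaling, filterByExpr and Benjamini-Hochberg adjustment over all genes tested, and calls at an adjusted p under 0.05. Diet was tested within each table. Tissue, and tissue by diet, were tested in 1 fit over 14 libraries and the 17600 genes of both tables. CPM use TMM library sizes, within a table or over all 14 libraries as stated, and CPM per kb divide by the union of GENCODE M21 exons. The files give gene ends 1 base past GENCODE's for all 39 members, so ends are printed 1 lower. DESeq2 1.42.0 and limma 3.58.1 (log2 of the deposited normalized value plus a pseudocount of 1 or 0.1) were alternatives, with other scalings and filters, mitochondrial genes removed, libraries left out or summed, and a replicate block. The test was checked on simulated data. Promoters came from RefSeq (GRCm38.p6).

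Named with values were members at 5 CPM or more in a group, members called in any comparison, the highest of each class, H2-Q10, Ciita and Nlrc5, and up to 3 genes of each pathway list by smallest unadjusted p. Members below these limits were added as ranges, and H2-Bl, H2-T10, H2-T-ps and H2-K2 were singled out after their values were seen. The members, lists and tests were chosen with earlier results of these data known.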

Additional observations from a re-analysis of the deposited data

Results flagged for a closer look

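Within the groups of 4 liver libraries, 58 sets of values (29 members in each diet) were checked for a library far from the other 3. Such a library was found in 8 sets, where a rate of about 1 in 20 would give 2.9. On the normal diet, H2-Q6 was low in library 4 at 11.1 CPM and H2-Ke6 was low in library 3 at 42.5 CPM. H2-M2 was high in library 1 at 0.214 CPM, which is 9 counts against 1 or 2 in the other 3. On high salt, library HS7 stood above the other 3 for B2m (1202 CPM), Nlrc5 (17.52 CPM), Psmb8 (32.3 CPM) and H2-Ke6 (44.6 CPM). Library HS5 was below the other 3 for Psmb10, at 19.9 CPM. HS5 and HS6, which resemble each other, count as 2 of the 4 in each high salt set. The rate of 1 in 20 may therefore not hold for those sets, and the excess over it was not tested. Kidney groups of 3 were not checked. For no member did the diets separate in opposite directions in the tissues, and no tissue by diet difference was called.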

How the results depend on the processing

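The number of members called in liver on high salt was 1 and moved with most settings. It was 2 with DESeq2 (H2-Q6 and H2-Q1), 0 with no filter on low counts, 0 with HS5 and HS6 summed and 0 with limma at either pseudocount. It was also 0 without normal diet libraries 1 and 2 together, and 0 with H2-Q6 and H2-Q7 summed, an alternative chosen after seeing the data. On leaving out 1 library it ran from 0 to 3, and the 3 (without normal diet library 3) were H2-Q6, Psmb8 and Psmb9. The direction of H2-Q6 was the same in all 18 settings that kept it. Calls over all genes of liver, 152, became 1122 with DESeq2, 12 with HS5 and HS6 summed, 52 without normal diet libraries 1 and 2, and 12 to 765 without 1 library. In kidney and for tissue by diet, 0 members were called in all 16 and 19 alternatives, while DESeq2 called 11 and 145 genes in all and 7 at most were called for tissue by diet without 1 library. Between the tissues 20 to 26 members were called against 23, and every log2 fold change printed for that comparison kept its direction in its alternatives. The cause of these shifts was not tested.

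Whether replicate numbers pair the samples could not be decided, as only 3 numbers could be compared. Deviations of same-numbered kidneys correlated at 0.53, 0.515 and -0.15 between the diets. Those of same-numbered normal diet liver and kidney correlated at -0.224, 0.25 and -0.295. With the number as a block, 0 members were called in kidney and 20 between the tissues (19 higher, 1 lower), over normal diet libraries 1 to 3. Normal diet kidneys 1 and 2 correlated best with the high salt kidney of their own number, and normal diet kidney 3 with high salt kidney 2 (0.522). No block could be fitted in liver, whose high salt columns carry no number that matches a title. With 3 or 4 libraries a group, the counts of members below 1 CPM, at times under 10 reads, limit what could be seen for them.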
